A study of Mus musculus with 18 samples.

Results

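The genes described here make the DNA replication machinery and its S-phase supply: 45 listed genes in 9 roles, which run from origin licensing over the helicase, polymerases, clamp loader and nucleotide synthesis to the regulators of S-phase entry and fork protection. Each gene was taken as the probe set with its own gene symbol in the array annotation, the brightest by mean over the arrays where there were several. Of the 45 genes 44 had such a probe set and 43 lay above the filter on dim signals and were tested, out of 13679 tested genes and 18194 genes with a probe set. The thymidylate synthase gene Tyms stayed under the filter, with values between 3.71 and 4.36 on the log2 scale, and 1 further gene is not analysed here. The genes were listed by function with earlier results of these data known, and the rule for the probe set uses the brightness over all arrays.

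Affymetrix arrays gave the RNA of primary fibroblasts of mouse embryos, the connective-tissue cells that grow out of minced embryos, taken from 14-day embryos without head and liver. The 6 groups of 3 arrays were cells labelled NFI-C knock-out and wild-type cells, each untreated, after 1 h and after 10 h with TGF-β1 at 12.5 ng/ml. TGF-β1 is a secreted factor that acts through SMAD proteins and slows the growth of many cell types. NFI-C is a transcription factor of the nuclear factor I family, and which stretch of its gene Nfic was deleted is not stated in the labels. Each genotype is represented by 3 embryos, and cells of the same embryo served the 3 conditions. All groups grew in medium with fetal calf serum and then stood for 4 to 6 h in medium with an albumin supplement and a mix of insulin, transferrin and selenium. Cells left without TGF-β1 for the same 10 h were not analysed here, so a difference at 10 h compares TGF-β1 and the added time in culture together with untreated cells.

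DNA replication starts when the origin recognition complex, Cdc6 and Cdt1 load the ring of Mcm2 to Mcm7 onto DNA in G1. In S phase Cdc45 and the GINS complex turn that ring into the active helicase, the primase starts each strand, clamp loader and clamp fix the polymerases to DNA, and nucleases and ligase join the pieces of the lagging strand. Many of these genes are switched on by E2F transcription factors as cells pass from G1 into S phase, and their RNA is low in resting fibroblasts.

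Values are log2 expression, so that 1 unit is a 2-fold difference, and they are listed in the order of embryos 1, 2 and 3. A level of one gene cannot be set against that of another, since probe sets differ in brightness. Differences are given with the standard error from limma, n is 3 embryos per group, and "fell" and "rose" are used where the two-sided p adjusted over all tested genes (Benjamini-Hochberg) was under 0.05. The number of arrays limits the precision: the 95% interval of a difference between 2 groups reached 0.27 to each side for the median gene.

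Several facts about the arrays bear on all values below. Nfic was not measurably lower in cells labelled knock-out, at -0.10 ± 0.16, -0.02 ± 0.16 and -0.09 ± 0.16 relative to wild type without TGF-β1, after 1 h and after 10 h, and whether its probe set lies in the deleted part is not known here, so this does not check the labels. The TGF-β1 target Smad7 rose by 1.71 ± 0.10 at 1 h in knock-out and by 1.88 ± 0.10 in wild-type cells, and was still up at 10 h, at 1.11 ± 0.10 and 1.28 ± 0.10. All 11 fibroblast markers were above the filter. All 12 macrophage and haematopoietic markers were above it as well, as were 5 of 7 epithelial, 3 of 5 neural and glial, 2 of 5 skeletal muscle, 2 of 6 endothelial and 1 of 3 hepatocyte markers. Of 4 erythroid markers 2 had a probe set, and 0 were above the filter. The median level over a list was 10.05 for fibroblast and 8.99 for macrophage and haematopoietic markers. It was 5.39 for neural and glial, 4.41 for epithelial, 4.00 for skeletal muscle, 3.97 for hepatocyte and 3.84 for endothelial markers. The epithelial median and those under it lie close to the filter, 4.16 to 4.25 over the arrays, or below it. At 10 h the epithelial markers Krt18 and Cldn4 rose, by 0.91 ± 0.27 and 0.43 ± 0.12 in knock-out and 1.19 ± 0.27 and 0.59 ± 0.12 in wild-type cells. The neural marker Map2 fell, at -1.08 ± 0.29 and -1.82 ± 0.29. The other tested epithelial and neural markers, Epcam, Krt8, Krt5, Sox10 and Tubb3, did not pass. Of the fibroblast markers Pdgfra, Prrx1 and Fap fell, at -2.57, -1.82 and -0.66 in knock-out and -2.48, -1.80 and -0.70 in wild-type cells. Lum fell, and Twist2 and the muscle marker Des rose, in wild type only. Col1a2, Col3a1, Pdgfrb, Thy1, Dcn and Vim did not pass in either genotype. The part of these markers in the replication values was not tested. Within a genotype the same number marks the same embryo, and the deviations of 2 arrays of an embryo from their group means correlated across all tested genes at 0.28 to 0.76, except for 2 wild-type arrays at 10 h. Array 2 of that group correlated at -0.06 with untreated wild-type array 2 and at 0.38 with untreated array 3, and array 3 at -0.20 with untreated array 3 and at 0.44 with untreated array 2. Across the genotypes, arrays with the same number correlated at 0.35, 0.54 and 0.07 for numbers 1, 2 and 3 untreated. At 1 h the values were 0.47, 0.49 and 0.10, and at 10 h 0.13, -0.20 and -0.02. These are different embryos, and what arrays of the same number share was not tested. The comparisons of groups do not use the embryo number. Values from a fit with the embryo as a block are given where they change a call, and the counts without these 2 arrays are given with the results.

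After 10 h the replication genes were lower in cells of both genotypes, and 0 of the 43 rose in knock-out cells, where 13.9% of all tested genes did. In knock-out cells 34 of the 43 fell, with a median difference of -0.66 over the 43, while 20.7% of all tested genes fell and their median was -0.03. In wild-type cells 29 fell, with a median of -0.57, while 18.8% of all tested genes fell and their median was 0.01. Orc1 rose in wild-type cells, where 14.9% of all tested genes rose. A fall of at least 2-fold was found for 10 of the 43 in knock-out cells, against 3.76% of all tested genes, and for 7 in wild-type cells, against 3.82%. From RNA of whole cultures, fewer cells in S phase and less RNA in each cell cannot be told apart.

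The 29 genes that fell in wild-type cells also fell in knock-out cells, and 16.0% of all tested genes fell in both genotypes. They are Mcm3, Mcm4, Mcm5, Mcm7, Cdc45, Gins1, Gins2, Pola1, Pola2, Prim1, Prim2, Pold1, Pole, Rfc2, Rfc3, Rfc4, Rfc5, Rpa1, Lig1, Rrm1, Rrm2, Tk1, Uhrf1, Chaf1b, E2f1, Ccne2, Timeless, Tipin and Clspn. Cdc6, Mcm2, Mcm10, Pole2 and Slbp fell past the threshold in knock-out cells and were negative short of it in wild-type cells, and their responses were not shown to differ between the genotypes. Orc1, Orc6, Cdt1, Mcm6, Pcna, Rpa2, Fen1, E2f2 and Ccne1 fell in neither. With the embryo as a block 37 genes fell in knock-out cells, with Cdt1, Pcna and Rpa2 added. In wild-type cells 32 fell, with Cdc6, Mcm2 and Pcna added. The block pairs by number the 2 wild-type 10 h arrays that did not follow it. Wild-type values from the block, here and below, thus rest on a doubted pairing. In 31 of the 43 genes all 3 arrays at 10 h lay below all 3 untreated arrays in both genotypes, as did 18.4% of all tested genes. With either of the 2 wild-type arrays named above left out, 26 and 30 genes fell in wild-type cells, and with both left out, which leaves 1 array at 10 h, 13 fell and 0 rose. Wild-type calls lost there are those of Mcm3, Mcm5, Gins1, Gins2, Prim1, Pold1, Pole, Rfc2, Rfc4, Rrm2, Tk1, E2f1, Ccne2, Timeless, Tipin and Clspn. The differences of Rfc3, Rfc4 and Tipin were smaller there by more than 1.5 times. In knock-out cells the count lay between 30 and 34 when each of the 6 embryos was left out in turn.

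**Figure D1:**
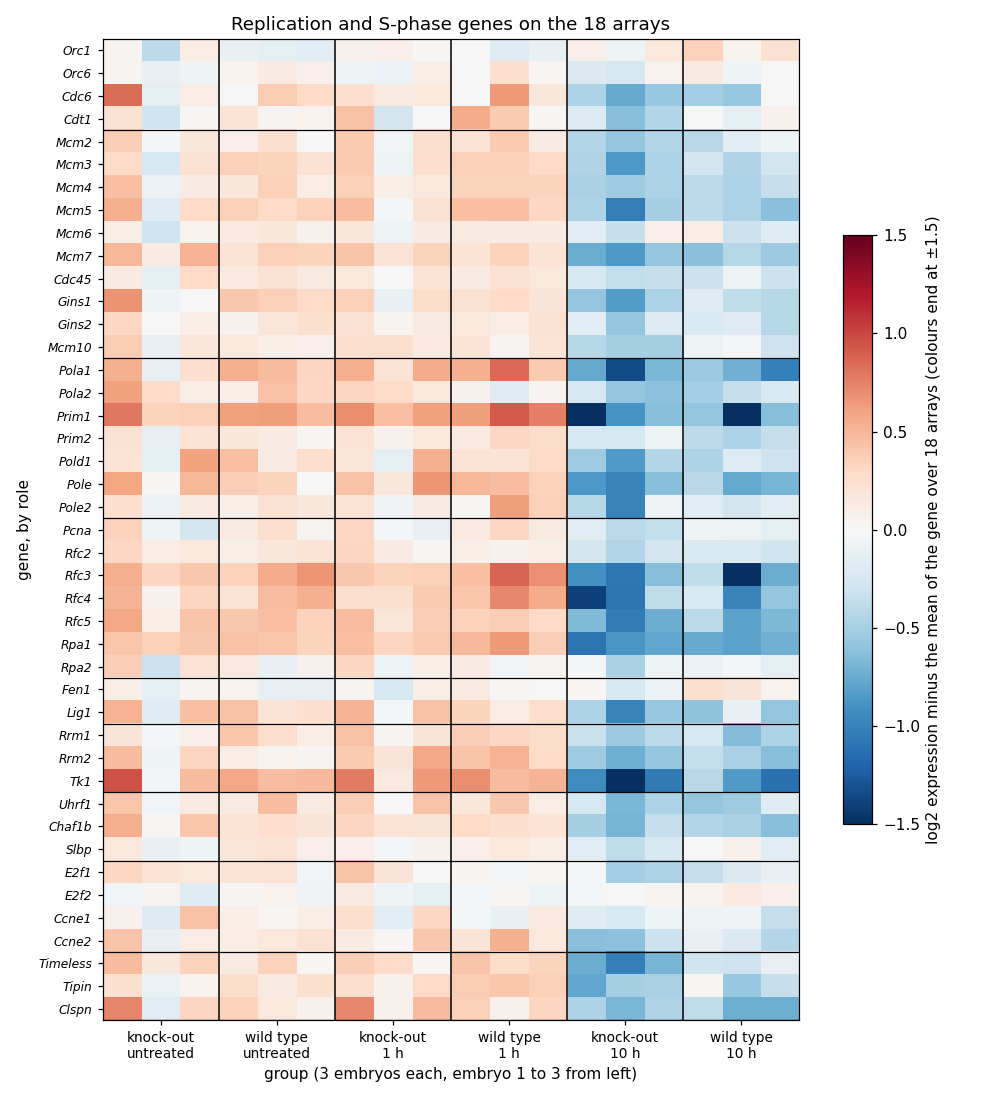
Log2 expression of 43 replication genes (rows, grouped by role) on the 18 arrays (columns, 3 embryos per group), coloured as the difference from the mean of each gene over all arrays. The 6 columns at 10 h are blue for most genes in both genotypes, Orc1, E2f2 and Fen1 keep near their mean, and the column of untreated knock-out embryo 2 is paler than those of knock-out embryos 1 and 3.

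**Figure D2:**
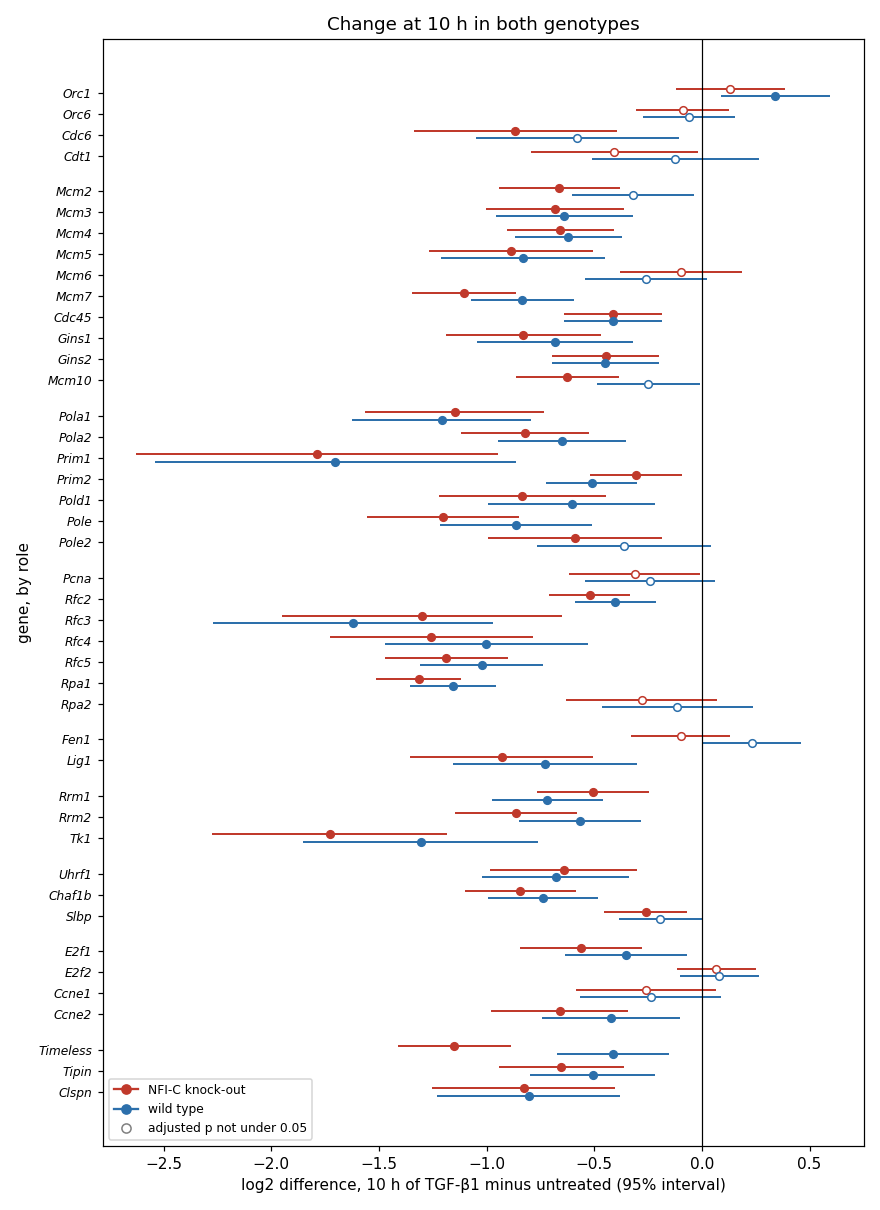
Log2 difference between 10 h of TGF-β1 and untreated cells for the 43 genes, with NFI-C knock-out above wild type and bars for the 95% interval from limma. Filled points have an adjusted p under 0.05: 34 genes in knock-out and 30 in wild type, of which Orc1 alone lies above 0.

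The promoters of the genes are shown because E2F factors are known to act on many of them through a short element near the start of transcription. RefSeq promoters of 300 bases (250 before and 50 after the annotated start, build GRCm38.p6) were at hand for 36 of the 44 genes and for 27025 genes in all. The letters TTTNNCGC, an E2F-like element, were found on either strand in 16 of the 36 (44.4%) and in 5.93% of all genes. The promoters of the members are also richer in G and C, with a median of 57.8% against 52.7% over all 32851 promoters, and the element itself holds a CpG. A total of 5 promoters are printed 5′ to 3′ on the strand of their gene, with the bases of the E2F-like element in capitals. Mcm5, Pola1 and Rfc3 fell in both genotypes, whereas Mcm6 fell in neither and Orc1 did not fall.
Mcm5 (chr8:75109259-75109558, + strand): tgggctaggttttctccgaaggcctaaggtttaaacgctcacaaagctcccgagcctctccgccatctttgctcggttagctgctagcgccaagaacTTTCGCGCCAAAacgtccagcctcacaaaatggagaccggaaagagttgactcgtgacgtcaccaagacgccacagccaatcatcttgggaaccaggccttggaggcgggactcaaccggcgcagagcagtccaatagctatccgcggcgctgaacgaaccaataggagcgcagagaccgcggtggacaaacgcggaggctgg
Pola1 (chrX:93632106-93632405, - strand): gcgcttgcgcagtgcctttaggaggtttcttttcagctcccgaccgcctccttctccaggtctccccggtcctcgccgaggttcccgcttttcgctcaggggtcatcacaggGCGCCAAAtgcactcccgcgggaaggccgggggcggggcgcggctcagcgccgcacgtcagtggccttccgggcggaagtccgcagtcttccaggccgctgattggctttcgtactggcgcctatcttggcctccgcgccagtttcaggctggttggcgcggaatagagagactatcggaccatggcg
Rfc3 (chr5:151651159-151651458, - strand): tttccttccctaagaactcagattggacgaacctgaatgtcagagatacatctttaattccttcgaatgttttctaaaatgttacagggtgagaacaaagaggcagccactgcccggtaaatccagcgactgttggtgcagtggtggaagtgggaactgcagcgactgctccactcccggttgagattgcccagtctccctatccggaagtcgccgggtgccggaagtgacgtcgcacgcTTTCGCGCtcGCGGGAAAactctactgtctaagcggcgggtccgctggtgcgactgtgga
Mcm6 (chr1:128359656-128359955, - strand): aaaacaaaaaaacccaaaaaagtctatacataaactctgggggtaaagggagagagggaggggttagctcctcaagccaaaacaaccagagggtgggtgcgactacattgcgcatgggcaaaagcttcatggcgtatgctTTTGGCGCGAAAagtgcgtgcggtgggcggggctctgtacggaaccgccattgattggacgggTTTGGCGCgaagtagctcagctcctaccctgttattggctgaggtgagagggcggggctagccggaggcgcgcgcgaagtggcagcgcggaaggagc
Orc1 (chr4:108579204-108579503, + strand): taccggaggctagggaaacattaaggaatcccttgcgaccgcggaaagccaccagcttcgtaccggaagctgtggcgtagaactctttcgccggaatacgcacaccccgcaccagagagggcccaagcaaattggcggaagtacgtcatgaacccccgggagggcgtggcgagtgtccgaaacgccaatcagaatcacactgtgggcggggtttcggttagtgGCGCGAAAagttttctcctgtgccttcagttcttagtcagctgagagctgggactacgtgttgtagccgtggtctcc

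Counted from the annotated start as 0, the element began at -153 and -149 in Mcm5, where 2 matches on opposite strands overlap, at -138 in Pola1, at -10 and 0 in Rfc3, at -110, -106 and -47 in Mcm6 and at -27 in Orc1. The element was found in 9 of the 21 promoters of genes that fell in both genotypes and in 4 of the 9 promoters of genes that fell in neither. CCAAT, the box bound by NF-Y, was found in 21 of the 36 promoters (58.3%) and in 41.1% of all genes. TTTGAA, known as the CHR element of G2 and mitotic genes, was found in 4 of the 36 (11.1%) and in 20.2% of all genes. The full palindrome of the NFI family (TTGGC, then 5 bases of any kind, then its reverse complement) was in none of the 36 and in 0.0444% of all genes. A match describes these letters in this window and is not evidence of a bound site.

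Of the 4 genes of origin licensing 1, Cdc6, fell in knock-out cells, and 0 fell in wild-type cells. The median difference of the 4 was -0.25 in knock-out and -0.09 in wild-type cells. Cdc6, the ATPase that loads the helicase ring, read 5.36, 5.06 and 5.25 in knock-out cells at 10 h, against 6.66, 5.68 and 5.92 in untreated ones. All 3 arrays at 10 h were lower, and the difference was -0.87 ± 0.22 (adjusted p = 0.00610). In wild-type cells it read 5.31, 5.25 and 5.82 at 10 h, against 5.81, 6.19 and 6.11 in untreated cells. There embryo 3 at 10 h overlapped the untreated range, with a difference of -0.58 ± 0.22 (0.0541). Without the wild-type 10 h array of embryo 3 the difference was -0.76 (0.0224), and without knock-out embryo 1, which changes only the shared estimate of the spread, it was -0.58 (0.0262). With the embryo as a block the adjusted p was 0.0217.

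Orc1, the largest subunit of the origin recognition complex, was higher at 10 h in wild type. It read 5.67, 5.37 and 5.55 in wild-type cells at 10 h, against 5.21, 5.19 and 5.16 in untreated cells, and rose by 0.34 ± 0.12 (adjusted p = 0.0340). All 3 arrays were higher, by a margin that depends on few arrays: the adjusted p was 0.185 without wild-type embryo 1, 0.169 without wild-type embryo 3, 0.0747 without the 10 h array of embryo 3 alone, 0.0540 without knock-out embryo 1 and 0.0598 in a fit of the 2 groups alone. In knock-out cells Orc1 read 5.40, 5.24 and 5.48 at 10 h, against 5.36, 4.93 and 5.44 in untreated cells, and the difference of 0.13 ± 0.12 did not pass (0.426). Its other probe set above the filter differed by 0.26 in knock-out and 0.15 in wild-type cells. Cdt1, the partner of Cdc6, differed by -0.41 ± 0.18 in knock-out (0.0946) and -0.12 ± 0.18 in wild-type cells (0.623), and fell in knock-out cells with the embryo as a block (0.0103). Its other probe set above the filter differed by -0.09 and 0.13. Orc6 differed by -0.09 ± 0.10 and -0.06 ± 0.10.

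Of the 10 genes of the helicase and its activators, 9 fell in knock-out and 7 in wild-type cells, with medians of -0.66 and -0.53. Mcm7, a subunit of the ring, read 9.23, 9.12 and 9.40 in knock-out cells at 10 h, against 10.48, 10.09 and 10.50 in untreated cells, a difference of -1.11 ± 0.11, 2.15-fold lower (2.2e-06). Wild-type cells gave 9.35, 9.54 and 9.43, against 10.19, 10.33 and 10.30, a difference of -0.83 ± 0.11, 1.78-fold lower (3.5e-05). The groups lay apart in both genotypes. Mcm5 read 8.05, 7.49 and 8.03 against 9.08, 8.34 and 8.81 in knock-out and 8.14, 8.05 and 7.90 against 8.89, 8.82 and 8.87 in wild-type cells, at 10 h and untreated. It fell, at -0.89 ± 0.18 (0.00106) and -0.83 ± 0.18 (0.00186). Mcm4 fell, with differences of -0.66 ± 0.11 (3.6e-04) and -0.62 ± 0.11 (6.5e-04). It read 8.50, 8.45 and 8.51 at 10 h against 9.43, 8.90 and 9.10 untreated in knock-out cells and 8.58, 8.51 and 8.64 against 9.15, 9.34 and 9.10 in wild-type cells.

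Of the 6 ring subunits 5 fell in knock-out and 4 in wild-type cells, and Mcm6 did not pass in either. Mcm6 read 9.35, 9.17 and 9.60 in knock-out cells at 10 h, against 9.62, 9.22 and 9.57 untreated, and 9.63, 9.20 and 9.32 in wild-type cells at 10 h, against 9.66, 9.68 and 9.58 untreated. These ranges overlapped in both genotypes, and the differences were -0.10 ± 0.13 (0.611) and -0.26 ± 0.13 (0.138). Its other probe set above the filter differed by -0.17 and -0.13. Mcm2 fell in knock-out cells, at -0.66 ± 0.13 (9.9e-04), and differed by -0.32 ± 0.13 in wild type (0.0707), where it passed with the embryo as a block (0.0193) and with the mean of all probe sets (-0.42, 0.0107). Cdc45, which joins the ring in the active helicase, fell, at -0.41 ± 0.11 (0.00622) and -0.41 ± 0.11 (0.00646), and the GINS subunits Gins1 and Gins2 fell in both genotypes, with differences of -0.83 ± 0.17 and -0.45 ± 0.11 in knock-out and -0.68 ± 0.17 and -0.45 ± 0.11 in wild-type cells. Without single embryos the wild-type calls of Cdc45 (embryo 1 or 3, adjusted p = 0.0628 and 0.0635), Gins1 (embryo 2 or 3, 0.0507 and 0.0501), Gins2 (embryo 3, -0.34, 0.112) and Mcm3 (embryo 2, 0.0505) were lost, as was the knock-out call of Cdc45 (embryo 3, -0.29, 0.0980). The other Cdc45 probe set above the filter differed by 0.01 and 0.05, and with the mean of all probe sets both Cdc45 calls were lost, at -0.20 in knock-out (0.0509) and -0.18 in wild-type cells (0.0751). Mcm2 passed in wild type without the 10 h array of wild-type embryo 3 (-0.39, 0.0499) or without knock-out embryo 2 (0.0442). Mcm10, which helps to activate the helicase, fell, with a difference of -0.63 ± 0.11 in knock-out (3.8e-04) and differed by -0.25 ± 0.11 in wild type (0.0922).

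All 7 polymerase and primase genes fell in knock-out cells and 6 of them in wild type, with medians of -0.83 and -0.65. Pola1, the catalytic subunit of the polymerase that extends the primer, read 5.63, 5.05 and 5.71 in knock-out cells at 10 h, against 6.93, 6.27 and 6.64 untreated, a difference of -1.15 ± 0.19 (2.6e-04). The wild-type arrays read 5.85, 5.67 and 5.38, against 6.94, 6.87 and 6.72, a difference of -1.21 ± 0.19 (1.9e-04). No array at 10 h reached the untreated range in either genotype. Pole, the catalytic subunit of the leading-strand polymerase, read 6.01, 5.86 and 6.23 in knock-out cells at 10 h, against 7.46, 6.88 and 7.37 untreated. It fell, at -1.20 ± 0.16 in knock-out (3.9e-05) and -0.86 ± 0.16 in wild-type cells (7.9e-04), where the arrays read 6.45, 6.10 and 6.17 at 10 h and 7.24, 7.21 and 6.87 untreated.

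Prim1, the catalytic subunit of primase, had a wide spread at 10 h, and with all arrays its difference was the most negative of the 43 genes in both genotypes. It read 5.14, 6.60 and 6.84 in knock-out cells at 10 h, against 8.28, 7.82 and 7.85 untreated, and 6.89, 5.31 and 6.85 in wild-type cells at 10 h, against 8.10, 8.11 and 7.95 untreated. The array of knock-out embryo 1 and that of wild-type embryo 2 lay more than 1 unit below the other 2 of their groups, and all 6 arrays lay below all untreated ones. The differences were -1.79 ± 0.39 (0.00225) and -1.70 ± 0.39 (0.00337), and without knock-out embryo 1 the first was -1.11 (0.0486). Without that embryo Tk1 had the most negative difference in knock-out cells (-1.65), and without wild-type embryo 2 it had it in wild-type cells (-1.30); without wild-type embryo 1 Rfc3 did (-2.07). With the mean of all probe sets the most negative were Tk1 (-1.73) in knock-out and Rfc3 (-1.62) in wild-type cells. With both wild-type arrays that did not follow their embryo number left out, the wild-type difference was -1.16 and no longer passed (0.0878). The other Prim1 probe set read 6.19, 5.92 and 6.44 in knock-out and 6.48, 5.99 and 6.35 in wild-type cells at 10 h, with differences of -1.34 and -1.24 and no array so far apart. Pola2 fell, with differences of -0.82 ± 0.14 in knock-out and -0.65 ± 0.14 in wild-type cells. Pold1, the catalytic subunit of the lagging-strand polymerase, fell, at -0.83 ± 0.18 and -0.60 ± 0.18, and Prim2, the large subunit of primase, fell, with differences of -0.31 ± 0.10 and -0.51 ± 0.10. Pole2, the second subunit of the leading-strand polymerase, fell in knock-out cells, at -0.59 ± 0.19 (0.0223), and differed by -0.36 ± 0.19 in wild type (0.148). The wild-type call of Pold1 was lost without wild-type embryo 1 (-0.45, 0.180) or 3 (-0.62, 0.0874), and in knock-out cells that of Prim2 without embryo 1 (-0.22, 0.238) or 3 (-0.32, 0.0750) and that of Pole2 without embryo 1 (-0.55, 0.130) or 2 (-0.43, 0.0742).

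Of the 7 genes of the clamp, its loader and the single-strand binding protein 5 fell in both genotypes, with medians over the 7 of -1.19 in knock-out and -1.0 in wild-type cells. Rpa1, the large subunit of the protein that coats single-stranded DNA, read 9.43, 9.66 and 9.76 in knock-out cells at 10 h, against 10.95, 10.90 and 10.94 untreated. It fell, at -1.32 ± 0.09, 2.49-fold lower (4.9e-08). In wild-type cells it read 9.78, 9.74 and 9.82, against 10.98, 10.96 and 10.87, a difference of -1.16 ± 0.09, 2.23-fold lower (2.2e-07). All 6 arrays at 10 h lay more than 1 unit below all 6 untreated ones. Its partner Rpa2 read 7.21, 6.74 and 7.15 at 10 h against 7.60, 6.90 and 7.44 untreated in knock-out cells and 7.14, 7.21 and 7.09 against 7.38, 7.11 and 7.29 in wild-type cells, with overlapping ranges and differences of -0.28 ± 0.16 (0.207) and -0.11 ± 0.16 (0.616). Rpa2 passed in knock-out cells without knock-out embryo 2, at -0.34 (0.0460), or with the embryo as a block (0.0284), and its other probe set above the filter differed by -0.08 and 0.03.

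The small subunits of the clamp loader replication factor C all fell. Rfc5 read 6.32, 5.94 and 6.24 in knock-out cells at 10 h, against 7.56, 7.09 and 7.41 untreated, and fell, with a difference of -1.19 ± 0.13 (6.2e-06). Wild-type cells gave 6.58, 6.19 and 6.31, against 7.39, 7.44 and 7.32, and fell, at -1.02 ± 0.13 (2.8e-05). Rfc3 fell, with differences of -1.30 ± 0.30 (0.00341) in knock-out and -1.62 ± 0.30 (7.0e-04) in wild-type cells. It read 6.25, 6.08 and 6.53 at 10 h against 7.71, 7.49 and 7.56 untreated in knock-out cells and 6.79, 4.99 and 6.41 against 7.51, 7.72 and 7.82 in wild-type cells. The low wild-type array is that of embryo 2, which was also the low one for Prim1, and without that embryo the difference was -1.06 (6.1e-04). The other Rfc3 probe set read 6.04, 5.04 and 6.02 in wild-type cells at 10 h. With both wild-type arrays that did not follow their embryo number left out, the wild-type difference of Rfc3 was -0.90 (0.00424) and that of Rfc4 -0.63 (0.152). Rfc4 fell, at -1.26 ± 0.22 and -1.0 ± 0.22 and Rfc2 fell, with differences of -0.52 ± 0.09 and -0.40 ± 0.09. The clamp itself, Pcna, did not pass, with differences of -0.31 ± 0.14 (0.0990) and -0.24 ± 0.14 (0.195); its arrays at 10 h read 11.02, 10.77 and 10.80 in knock-out and 11.11, 11.10 and 11.05 in wild-type cells, against 11.52, 11.11 and 10.90 and 11.31, 11.44 and 11.22 untreated. With the embryo as a block Pcna fell in both genotypes, with the same differences (0.00951 in knock-out and 0.0348 in wild-type cells), and with the embryo as a random block it fell in knock-out cells (0.0418).

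Of the 2 genes that finish the lagging strand 1, Lig1, fell in both genotypes. Lig1, the ligase that seals the joined pieces, read 7.44, 6.92 and 7.34 in knock-out cells at 10 h, against 8.42, 7.71 and 8.35 untreated, and fell, at -0.93 ± 0.20 (0.00181). The wild-type arrays read 7.30, 7.80 and 7.31, against 8.34, 8.11 and 8.15, and fell, with a difference of -0.73 ± 0.20 (0.00996), with embryo 2 nearer to the untreated cells. That call was lost without wild-type embryo 1 (-0.58, adjusted p = 0.121) or embryo 3 (-0.67, 0.0851). Fen1, the nuclease that trims the flap of each piece, read 9.51, 9.25 and 9.40 in knock-out cells at 10 h, against 9.58, 9.35 and 9.53 untreated, and 9.74, 9.68 and 9.55 in wild-type cells, against 9.54, 9.37 and 9.37. Its differences of -0.10 ± 0.11 (0.513) and 0.23 ± 0.11 (0.101) did not pass. With the embryo as a block, which pairs 2 wild-type 10 h arrays by a number they did not follow, Fen1 rose in wild-type cells (0.0212). Its other probe set above the filter differed by 0.07 in knock-out and 0.04 in wild-type cells.

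All 3 tested genes of nucleotide supply fell in both genotypes, with medians of -0.86 in knock-out and -0.72 in wild-type cells. Tk1, the thymidine kinase of dividing cells, read 6.67, 5.82 and 6.54 in knock-out cells at 10 h, against 8.57, 7.57 and 8.09 untreated, a difference of -1.73 ± 0.25, 3.32-fold lower (7.9e-05). In wild-type cells it read 7.20, 6.76 and 6.49, against 8.19, 8.08 and 8.10, a difference of -1.31 ± 0.25, 2.47-fold lower (9.5e-04). Knock-out embryo 2 was the lowest of its group both untreated and at 10 h. Rrm2, the small subunit of ribonucleotide reductase whose level limits the enzyme in S phase, read 9.22, 9.02 and 9.17 against 10.23, 9.69 and 10.07 in knock-out and 9.39, 9.27 and 9.11 against 9.87, 9.81 and 9.79 in wild-type cells, at 10 h and untreated. It fell, at -0.86 ± 0.13 (1.0e-04) and -0.57 ± 0.13 (0.00330), and the large subunit Rrm1 fell, with differences of -0.51 ± 0.12 (0.00376) and -0.72 ± 0.12 (2.7e-04).

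Among the 3 tested genes that copy chromatin, Chaf1b, a subunit of the chromatin assembly factor that places histones on new DNA, read 6.02, 5.83 and 6.17 in knock-out cells at 10 h, against 7.07, 6.55 and 6.94 untreated, and fell, at -0.84 ± 0.12 (5.2e-05). Wild-type cells gave 6.08, 6.04 and 5.89, against 6.73, 6.78 and 6.72, and fell, with a difference of -0.74 ± 0.12 (1.9e-04). The ranges lay apart in both. Uhrf1, which brings the maintenance methyltransferase to new DNA, fell, at -0.64 ± 0.16 (0.00505) and -0.68 ± 0.16 (0.00363). It read 7.12, 6.70 and 6.91 at 10 h against 7.80, 7.34 and 7.52 untreated in knock-out cells and 6.80, 6.85 and 7.20 against 7.52, 7.85 and 7.52 in wild-type cells, and the wild-type call was lost without embryo 2 (-0.52, 0.0615). Slbp, which binds the stem-loop of histone RNA, fell, with a difference of -0.26 ± 0.09 in knock-out cells (0.0312), a call lost without any 1 of the 3 knock-out embryos (-0.23, -0.26 and -0.30, adjusted p = 0.138, 0.0889 and 0.0853) or without wild-type embryo 1 (0.0567), and differed by -0.19 ± 0.09 in wild type (0.104).

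Of the regulators of S-phase entry, Ccne2 and E2f1 fell in both genotypes, and Ccne1 and E2f2 did not pass in either. Ccne2, 1 of the 2 cyclins E that drive the kinase CDK2, read 5.56, 5.57 and 5.86 in knock-out cells at 10 h, against 6.61, 6.06 and 6.30 untreated, and fell, at -0.66 ± 0.15 (0.00255). The wild-type arrays read 6.06, 5.97 and 5.75, against 6.29, 6.33 and 6.41, and fell, with a difference of -0.42 ± 0.15 (0.0373). The wild-type call was lost without any 1 of the 3 wild-type embryos (-0.52, -0.45 and -0.30, adjusted p = 0.0669, 0.0894 and 0.261) and the knock-out call without knock-out embryo 1 (-0.47, 0.0661). Ccne1 read 7.93, 7.88 and 8.05 against 8.17, 7.91 and 8.56 in knock-out and 8.04, 8.06 and 7.75 against 8.21, 8.15 and 8.21 in wild-type cells, at 10 h and untreated, and its differences of -0.26 ± 0.15 (0.208) and -0.24 ± 0.15 (0.237) did not pass.

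E2f1, the activator of many S-phase genes, read 7.04, 6.55 and 6.60 in knock-out cells at 10 h, against 7.38, 7.27 and 7.23 untreated, and fell, at -0.56 ± 0.13 (0.00333). In wild-type cells it read 6.71, 6.86 and 6.96, against 7.27, 7.29 and 7.04, and fell, with a difference of -0.35 ± 0.13 just within the threshold (0.0482); the call was lost without wild-type embryo 1 (-0.25, 0.307), wild-type embryo 2 (-0.32, 0.211) or knock-out embryo 2 or 3 (adjusted p = 0.0626 and 0.0504). E2f2 lay between 4.83 and 5.16 on all 18 arrays and did not pass, at 0.07 ± 0.08 and 0.08 ± 0.08. No test compared a paralog with its partner.

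The 3 genes of fork protection fell in both genotypes, with medians of -0.83 in knock-out and -0.51 in wild-type cells. Timeless, which keeps helicase and polymerase together, read 5.66, 5.38 and 5.71 in knock-out cells at 10 h, against 6.88, 6.57 and 6.75 untreated, a difference of -1.15 ± 0.12 (3.5e-06). Wild-type cells gave 6.11, 6.10 and 6.29, against 6.54, 6.75 and 6.43, a difference of -0.41 ± 0.12 (0.0151) that was lost without wild-type embryo 1 (-0.40, 0.0885) or 2 (-0.29, 0.175). Its partner Tipin fell, at -0.65 ± 0.13 (0.00137) and -0.51 ± 0.13 (0.00833). At 10 h Tipin read 8.43, 8.70 and 8.72 in knock-out and 9.24, 8.64 and 8.87 in wild-type cells, against 9.45, 9.10 and 9.26 and 9.48, 9.34 and 9.44 untreated, and the wild-type call was lost without embryo 2 (-0.41, 0.0654) or 3 (-0.47, 0.0801) or in a fit of the 2 groups alone (0.0540). With both wild-type arrays that did not follow their embryo number left out the wild-type difference of Tipin was -0.18 (0.450). Clspn, the adaptor that passes fork stress to the checkpoint kinase CHK1, fell, with differences of -0.83 ± 0.20 (0.00396) and -0.80 ± 0.20 (0.00513). It read 6.05, 5.83 and 6.07 at 10 h against 7.25, 6.35 and 6.84 untreated in knock-out cells and 6.14, 5.78 and 5.79 against 6.87, 6.68 and 6.59 in wild-type cells. Its other probe set above the filter differed by -0.06 and 0.02.

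**Figure D3:**
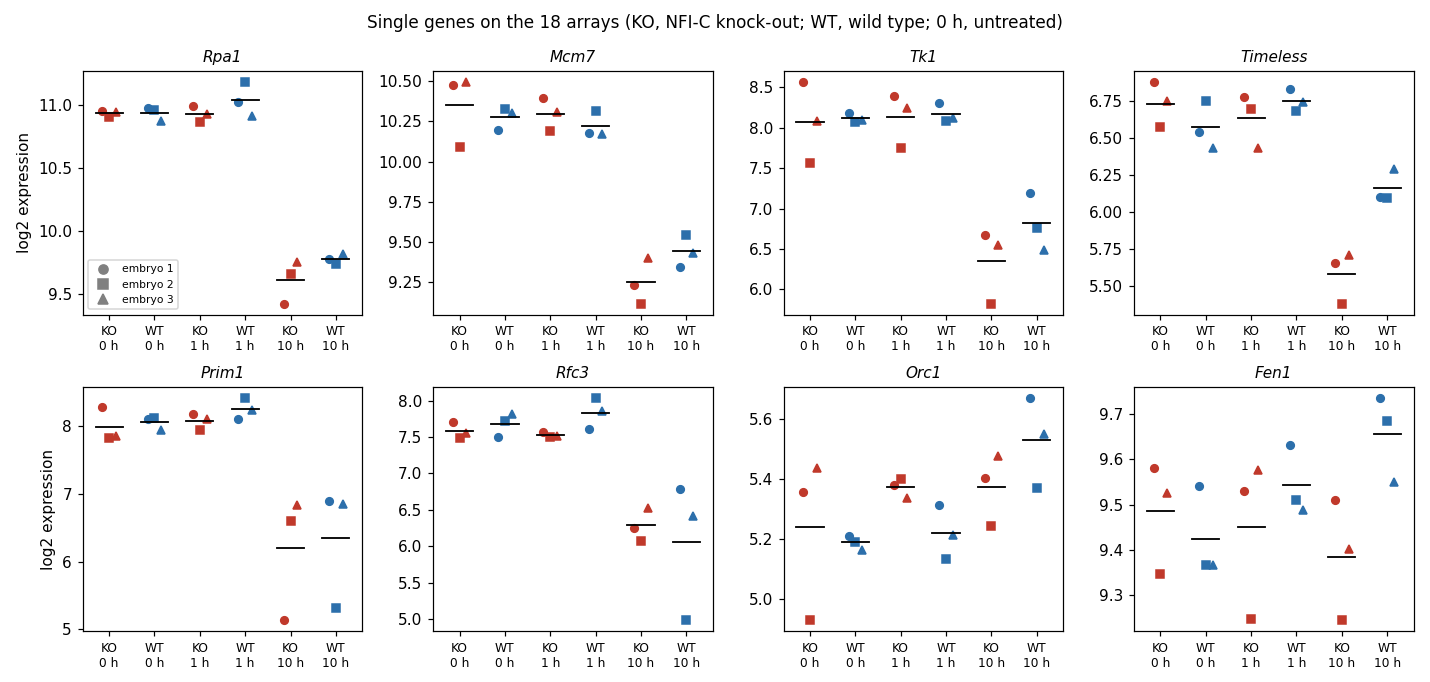
Log2 expression of 8 genes on the 18 arrays, with 1 point per embryo and a line at the mean of each group of 3. Rpa1, Mcm7, Tk1, Timeless, Prim1 and Rfc3 lie lower at 10 h in both genotypes, Prim1 has 1 array far below the others in each genotype, Rfc3 in wild type, and Orc1 and Fen1 are not lower in wild-type cells at 10 h.

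Genes with several probe sets gave a check inside the array. The 44 genes have 97 single-symbol probe sets, and 36 further probe sets of 27 genes were above the filter. Of these 36, 29 had the sign of the brightest one in both genotypes at 10 h. The 7 others belong to Cdc45, Cdt1, Clspn, E2f1, Fen1, Prim2 and Rpa2. Those of Cdc45, Clspn, E2f1 and Prim2 were dim, with means of 4.95, 4.88, 4.33 and 4.31. Those of Cdt1, Fen1 and Rpa2 were brighter, with means of 7.28, 7.60 and 7.07. E2f1 and Prim2 each have a brighter further probe set, which differed by -0.66 and -0.53 in knock-out and -0.54 and -0.34 in wild-type cells. Of 28 further probe sets of genes that fell in both genotypes, 24 were negative in both. Of the 43 probe sets used, 5 (Mcm5, Pold1, Fen1, Rrm2 and Ccne1) are of the kind that the array's maker marks as able to bind unrelated transcripts, and 4 (Mcm2, Mcm3, Mcm7 and Gins2) are of the kind marked as shared by several transcripts. The first 5 genes have 6 further probe sets above the filter, of which 5 were negative in both genotypes, and the other 4 have 9, of which 9 were. With the mean of all probe sets, which takes in those under the filter, the knock-out calls of Pole2 (-0.32, 0.0816) and Slbp (-0.16, 0.122) were lost. Both calls of Cdc45 were lost as well, and 8 further called differences in each genotype moved by more than 1.5 times and still passed. In a fit of the 2 groups alone the knock-out calls of Gins2 (0.0554), Prim2 (0.114), Pole2 (0.0946) and Slbp (0.125) were lost and Pole2 passed in wild type (0.0332). After repeated quantile normalization those of Prim2 in knock-out (-0.26, 0.0557) and of Ccne2 (-0.34, 0.0786) and E2f1 (-0.26, 0.127) in wild type were lost. The wild-type call of E2f1 was also lost with no filter (0.0559), with eBayes with trend (0.0516) and in a fit of the 2 groups alone (0.0693).

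At 1 h no replication gene passed the test. With limma 0 of 43 passed in knock-out and 0 in wild-type cells, where 0.490% and 0.585% of all tested genes did, and 0 and 2 of the 43 had an unadjusted p under 0.05, against 3.74% and 6.87% of all tested genes. The median difference was 0.04 in both genotypes, with single genes between -0.10 and 0.22 in knock-out and between -0.31 and 0.34 in wild-type cells. The 95% intervals of all 43 lay within a 2-fold change in knock-out cells and those of 42 in wild type. Relative to the 1 h arrays, 34 genes were lower at 10 h in knock-out cells and 0 higher, with a median of -0.74, and 30 were lower and 0 higher in wild-type cells, with a median of -0.59. Of all tested genes 33.4% passed in either direction in knock-out and 33.3% in wild-type cells, and 13.7% and 15.3% passed upwards. These counts use the same 10 h arrays as the comparison with untreated cells. Without both wild-type 10 h arrays that did not follow their embryo number 15 were lower than at 1 h.

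No replication gene differed between the genotypes past the threshold without TGF-β1, after 1 h, after 10 h or when the 3 arrays of each embryo were averaged, and by limma 0% of all tested genes did. With an unadjusted p under 0.05 there were 0, 0, 6 and 2 of the 43, against 3.36%, 6.18%, 5.27% and 4.82% of all tested genes. The median difference, knock-out minus wild type, was -0.04, -0.05, -0.17 and -0.08, and the 95% intervals of all 43 genes lay within a 2-fold difference in untreated cells and of 42 at 1 h and at 10 h. At 10 h 37 of the 43 differences were negative, from -0.58 for Timeless to 0.22, with a smallest adjusted p of 0.484, and 56.4% of all tested genes had a negative difference. In 11 of the 43 genes all 3 knock-out arrays at 10 h lay below all 3 wild-type arrays, as in 4.96% of all tested genes. The genes are not independent in these counts, since their deviations from the group means were correlated, as given with the spread between embryos. Timeless at 10 h read 5.66, 5.38 and 5.71 in knock-out against 6.11, 6.10 and 6.29 in wild-type cells, -0.58 ± 0.12 with an adjusted p of 0.484. Its other probe set above the filter read 4.97, 4.67 and 4.47 against 5.05, 5.26 and 4.63, with overlapping ranges.

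The size of the 10 h fall was also set against genotype. The response in knock-out minus that in wild-type cells was negative for 35 of the 43 genes, with a median of -0.15, and for 56.9% of all tested genes. The 43 genes deviated together between arrays, so they are not independent in this count either. None passed (0 of 43, with 3 at an unadjusted p under 0.05, against 2.23% of all tested genes, smallest adjusted p = 0.999), and 0% of all tested genes did. The difference was -0.74 ± 0.17 for Timeless, the most negative of the 43 with all arrays, with a 95% interval from -1.10 to -0.37, and the intervals of 39 genes lay within a 2-fold difference. The other Timeless probe set above the filter differed by -0.92 in knock-out and -0.55 in wild-type cells between 10 h and untreated. At 1 h the median of the same quantity was 0.01, and 0 of 43 passed.

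Other genes of the cell cycle, in lists chosen with earlier results of these data known, gave the setting of the fall. Among all tested genes 20.7% fell and 13.9% rose in knock-out cells, and 18.8% fell and 14.9% rose in wild type. Of 38 further tested replication genes 22 fell and 3 rose in knock-out cells (median -0.41) and 18 fell and 3 rose in wild type (-0.38). Dscc1, a subunit of an alternative clamp loader, fell, at -1.63 ± 0.19 (1.2e-05) and -1.40 ± 0.19 (5.5e-05), and Dbf4, which activates the kinase that fires origins, fell, with differences of -0.72 ± 0.11 and -0.61 ± 0.11. Pole4, a small subunit of polymerase epsilon, rose by 0.63 ± 0.11 (5.3e-04) and 0.71 ± 0.11 (2.1e-04). Of 29 tested genes of mitosis 24 fell in knock-out and 23 in wild-type cells and 0 rose in either, with medians of -0.80 and -0.75. Among them Mki67, the marker of cycling cells, fell, at -1.34 ± 0.21 (1.4e-04) and -1.38 ± 0.21 (1.2e-04).

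The lists of regulators were mixed. Their counts stand beside shares of all tested genes of 20.7% that fell and 13.9% that rose in knock-out cells. In wild type these shares were 18.8% and 14.9%, and the lists were not tested against them. Of 18 tested genes of E2F partners, pocket proteins and S-phase kinases 6 fell and 4 rose in knock-out cells (median -0.09), and 7 fell and 2 rose in wild type (-0.10). Ccna2, the cyclin A of S and G2 phase, fell, with differences of -0.99 ± 0.16 (1.7e-04) and -0.86 ± 0.16 (5.9e-04), while Cdc25a, a phosphatase that activates CDK2, rose by 0.49 ± 0.10 and 0.56 ± 0.10. Of 13 tested G1 cyclins, CDK inhibitors and their regulators 5 fell and 1 rose in knock-out (median -0.28) and 5 fell and 2 rose in wild type (-0.26). Myc, whose RNA TGF-β1 is known to lower in many epithelial cells, rose here by 1.14 ± 0.21 (6.7e-04) and 1.04 ± 0.21 (0.00147), and the CDK inhibitor gene Cdkn1b fell, at -1.07 ± 0.21 (9.7e-04) and -0.74 ± 0.21 (0.0132). At 1 h 0 genes of these 4 lists passed in either genotype, where 0.490% of all tested genes did in knock-out and 0.585% in wild-type cells.

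The spread between embryos was measured as the SD of each gene over the 3 arrays of a group. The replication genes had median SDs of 0.256 in untreated knock-out and 0.0731 in untreated wild-type cells, where all tested genes had 0.140 and 0.126. At 1 h their median SDs were 0.152 in knock-out and 0.0883 in wild-type cells, where all tested genes had 0.127 and 0.110. At 10 h they were 0.173 in knock-out and 0.138 in wild-type cells, where all tested genes had 0.136 and 0.163. So the replication genes spread more than the median gene between the knock-out embryos in each condition and less between the wild-type embryos; 35 of the 43 lay above the median of all tested genes in untreated knock-out cells and 13 in untreated wild-type cells. This is a description of 3 embryos per group and was not tested. The SD was highest for Cdc6 in untreated knock-out cells (0.507), Pole in untreated wild type (0.207), Prim1 at 10 h in knock-out (0.921) and Rfc3 at 10 h in wild type (0.950).

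**Figure D4:**
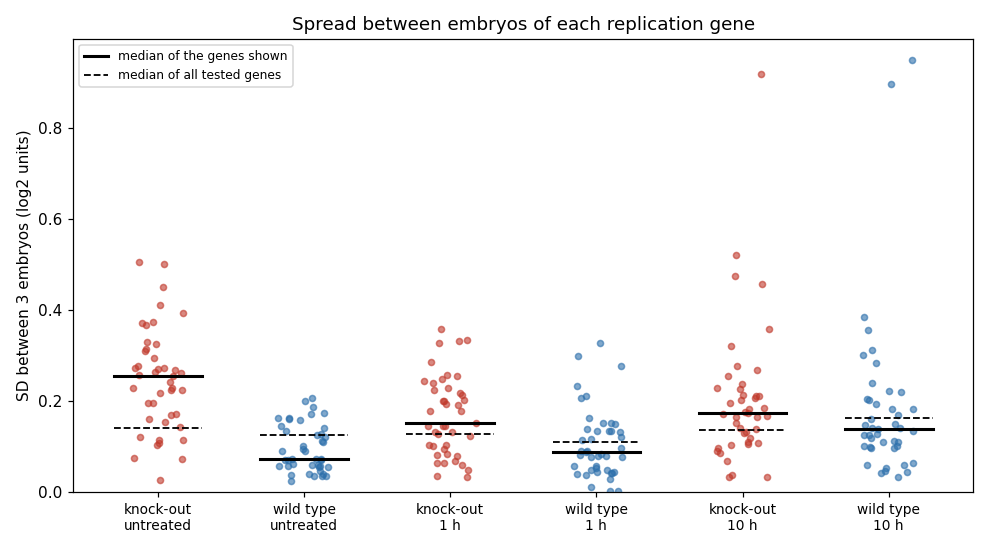
SD between the 3 embryos of a group (log2 units) for each of the 43 genes, with the median of these genes (solid line) and of all tested genes (dashed). In untreated cells the solid line lies at 0.256 in knock-out and 0.0731 in wild type, and at 10 h Prim1 in knock-out (0.921) and Rfc3 in wild type (0.950) stand highest.

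In knock-out cells the spread followed the embryo number. The mean of the 43 genes was 8.07, 7.63 and 7.89 in untreated knock-out embryos 1 to 3, and 7.90, 7.92 and 7.85 in the wild-type ones. At 1 h it was 8.01, 7.75 and 7.93 in knock-out and 7.93, 7.99 and 7.91 in wild-type cells, and at 10 h 7.19, 6.998 and 7.27 in knock-out and 7.41, 7.25 and 7.31 in wild-type cells. Knock-out embryo 2 had the lowest mean in all 3 conditions, and no array at 10 h reached an untreated or 1 h array of either genotype. This embryo was also lowest in all 3 conditions for the mitosis genes (7.97, 8.08 and 7.10) and the further replication genes (7.13, 7.15 and 6.80). For the G1 cyclins and CDK inhibitors the lowest untreated knock-out mean was that of embryo 3. Across knock-out embryos the SDs of the mitosis mean were 0.337, 0.247 and 0.323, against 0.220, 0.134 and 0.142 for the 43 genes. Knock-out embryo 2 was the lowest of its group for 39 of the 43 genes untreated, 34 at 1 h and 36 at 10 h, and for 38.6%, 36.4% and 36.4% of all tested genes. Its median distance from the mean of the other 2 embryos was -0.37 untreated, -0.22 at 1 h and -0.21 at 10 h. The 10 h fall of the mean was -0.71 in knock-out and -0.57 in wild-type cells, larger than the widest range within a group, 0.44.

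**Figure D5:**
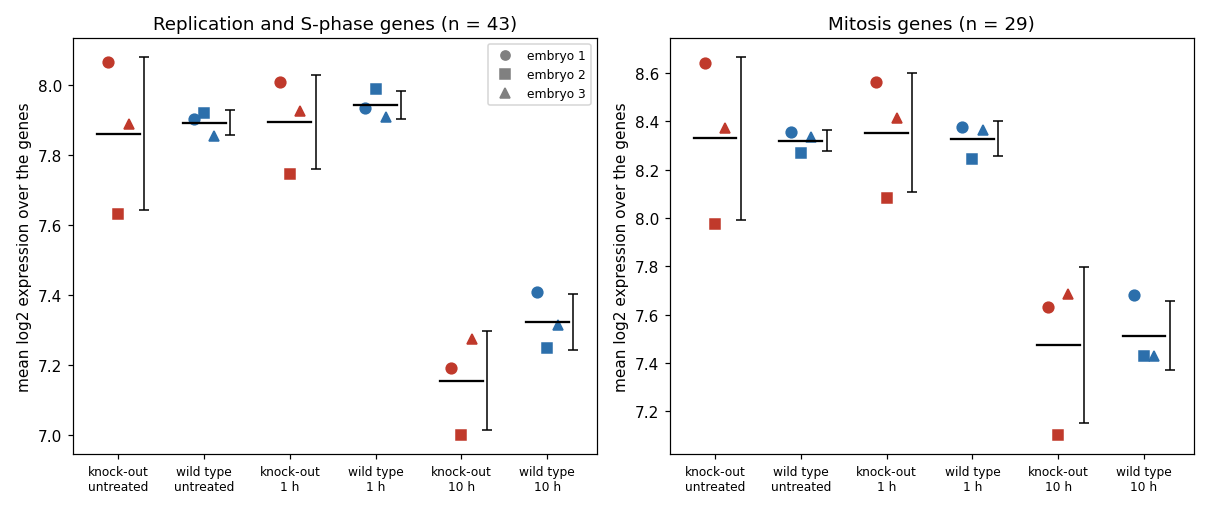
Mean log2 expression per array of the 43 replication genes (left) and of 29 mitosis genes (right), with 1 marker per embryo, a line at the group mean and a bar for the SD over 3 embryos. Knock-out embryo 2 has the lowest replication mean of its group in each condition (7.63 untreated, 7.75 at 1 h, 6.998 at 10 h). It also has the lowest mitosis mean (7.97, 8.08 and 7.10), and in both panels all arrays at 10 h lie below all others.

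The genes deviated from their group means together. The mean correlation between pairs of the 43 genes over the 18 deviations (12 degrees of freedom, arrays shared by all genes) was 0.42, and 0.01 between all tested genes. Most arrays of an embryo deviated alike, so the 18 deviations hold less independent information than the 12 degrees of freedom state. The mean of the 43 genes per array carried 35.0% of their variance within groups, and the corresponding share for all tested genes was 0.277%. RMA brings the arrays to 1 distribution, which holds both figures for all tested genes near 0. They thus do not show what another list of 43 genes would give. Cell markers were averaged in the same way. The mean of the 12 macrophage and haematopoietic markers was 9.72, 8.06 and 8.44 in untreated knock-out and 10.40, 8.92 and 8.79 in untreated wild-type embryos, 9.50, 8.04 and 8.40 against 10.26, 8.85 and 8.68 at 1 h, and 9.63, 7.83 and 8.45 against 10.22, 8.28 and 8.86 at 10 h. The mean of the 11 fibroblast markers was 10.71, 10.44 and 10.78 in untreated knock-out and 10.82, 10.80 and 11.03 in untreated wild-type embryos, and 9.94, 10.06 and 10.32 against 10.36, 10.19 and 10.34 at 10 h. Knock-out embryo 2 had the lowest macrophage mean of its group in each condition, as it had the lowest replication mean. The fibroblast mean was lowest in knock-out embryo 2 untreated and in knock-out embryo 1 at 10 h. Embryo 1 of each genotype had the highest macrophage mean of its group in each condition. In wild type the replication mean was highest in embryo 1 at 10 h (7.41) and in embryo 2 untreated and at 1 h (7.92 and 7.99). In knock-out cells it was highest in embryo 1 untreated and at 1 h (8.07 and 8.01) and in embryo 3 at 10 h (7.27). The part of these cell markers in the replication values was not tested.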

How the data were processed

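Per the submitters' processing notes the authors summarized the arrays by RMA, in a version not stated in the sources used here, and the deposited values are log2 expression for every probe set and array. RMA removes background, brings the arrays to 1 distribution and combines the probes of a set, so a shift shared by all genes of an array is lost. The log2 scale was read from the values, which run from 2.49 to 14.47. No further normalization was applied. Of 45101 probe sets 34958 had 1 gene symbol in the array annotation, 932 had several and 9211 were not named there. The brightest probe set by the mean over the 18 arrays stood for each of 18194 genes. The 13679 genes above the 40th percentile of the array (4.16 to 4.25) on at least 3 arrays were tested.

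Group means (6 groups, 18 arrays) were fitted with limma 3.58.1 in R 4.3.3 (12 residual degrees of freedom), with empirical Bayes variances and Benjamini-Hochberg adjustment over all tested genes at 0.05. The fit was tested on simulated data. The genotypes were also compared on embryo means. Alternatives were the embryo as a block (fixed or random), no filter or a 50th percentile, the mean of all probe sets of a gene, repeated quantile normalization, median centring, eBayes with trend, only the 2 groups compared, and each embryo left out. Leaving out the wild-type 10 h arrays 2 and 3 was added after seeing the data. Arrays of 1 genotype that share a number come from 1 embryo by their labels, which pairs the conditions, and the correlations of their deviations stand with the description of the arrays; the labels also say that cells were cultured in triplicate. Values per array are given, in each role, for the 2 genes with the smallest product of the 10 h p values of both genotypes, the gene with the largest SD within groups and any gene that rose. Those of Mcm6, Rpa2 and Pcna were added after their values were seen, and the other members are given by their differences or counts. Of each further list up to 4 genes with the smallest product are named, with their differences. The members and lists were chosen with earlier results of these data known. 1 listed gene is not reported here. Promoter sequences are from RefSeq (GRCm38.p6).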

Additional observations from a re-analysis of the deposited data

Results flagged for a closer look

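The Fen1 differences at 10 h had opposite signs in the 2 genotypes. The difference between 10 h and untreated cells of the same embryo number was -0.07, -0.10 and -0.13 in knock-out embryos 1, 2 and 3, against 0.19, 0.32 and 0.18 in wild-type embryos 1, 2 and 3. The response in knock-out minus that in wild-type cells was -0.33 ± 0.15 (standard error, n = 3 embryos per group, limma adjusted p = 0.999), so the difference between the genotypes did not pass. Fen1 was the only 1 of the 43 genes of which this held, and 86 of all 13679 tested genes (0.629%) showed such a split. The values per embryo use the number of wild-type 10 h arrays 2 and 3, which did not follow their embryo. The split is that of the brightest probe set of Fen1: the other one above the filter differed by 0.07 in knock-out and 0.04 in wild-type cells, positive in both.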

How the results depend on the processing

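At 10 h 34 genes fell in knock-out cells, 28 of them under all 18 alternatives run, and 29 fell in wild type, 10 of them under all 18. These 2 counts are not alike, since some alternatives leave out wild-type 10 h arrays and none leaves out knock-out 10 h arrays alone. With each of the 6 embryos left out in turn, 29 of the 34 fell throughout in knock-out and 18 of the 29 in wild-type cells. The 9 genes that fell under every alternative in both genotypes were Mcm4, Mcm7, Pola1, Pola2, Rfc3, Rfc5, Rpa1, Rrm1 and Chaf1b. With the embryo as a replicate block, the pairing by number, 37 fell in knock-out and 32 in wild-type cells (36 and 31 as a random block), and the genes that rose in wild type numbered 2 under either block, against 1 in the fit without it, and 1 against 0 relative to 1 h; the block changed no other count by over 1.5 times. Fitting only the 2 groups compared, or leaving out both doubted wild-type 10 h arrays, gave 0 that rose, and leaving out these 2 arrays left 13 that fell relative to untreated cells and 15 relative to 1 h, with 1 array at 10 h that is assumed to vary like the other groups. Leaving out 1 embryo at a time gave 0 to 1 that rose in wild type, 22 to 30 that fell there and 30 to 34 in knock-out cells; relative to 1 h 0 to 1 rose in wild type. The stricter filter, the mean of all probe sets and repeated quantile normalization each gave 1 that rose relative to 1 h. With the mean of all probe sets the medians were -0.42 in wild type at 10 h, and relative to 1 h -0.52 in knock-out and -0.45 in wild type (the cause was not tested). That mean takes in probe sets under the filter. The second Pola1 probe set, with a mean of 3.38, differed by -0.002 in knock-out and 0.12 in wild-type cells. With it in the mean Pola1 differed by -0.58 and -0.55, against -1.15 and -1.21 for the brightest probe set. No result reversed. The counts of 0 at 1 h and between the genotypes stayed 0 under all alternatives run. The signal of dim genes such as Tyms limits what can be seen.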
